A study of Mus musculus with 18 samples.

Results

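The interferon-inducible GTPases examined here are 7 guanylate-binding proteins (Gbp2, Gbp2b, Gbp3, Gbp4, Gbp5, Gbp7 and Gbp10) and 3 immunity-related GTPases, the IRG family (Tgtp1, Tgtp2 and Iigp1). They are 10 of the 816 gene symbols in the authors' 6 deposited lists of genes that differed between EED-deficient and control macrophages, and they were selected on their authors' fold changes and p-values, that is, on standing in those lists. Their presence there, their direction and their p-values are therefore a description and support nothing by themselves. EED is a subunit of Polycomb repressive complex 2, which methylates histone H3 at lysine 27 and keeps target genes silent. Macrophages were grown from the bone marrow of mice with loxP-flanked Eed and 1 LysM-Cre allele (Eedfl/fl; LysM-Cre+/-, EED KO) or of littermate controls (WT), whose own alleles are not stated in the sources used here, nor are strain and age. LysM-Cre is a Cre recombinase inserted in the lysozyme gene Lyz2, which is active in myeloid cells. RNA-seq was done on 18 libraries, 3 per genotype in unstimulated cells, in cells primed with bacterial lipopolysaccharide (LPS) at 100 ng/ml for 24 h, and in tolerant cells, which after priming rested for 48 h before a second LPS dose of 10 ng/ml. Cells that answer such a repeated dose weakly are called tolerant.

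Both families are made of large GTP-hydrolysing proteins that interferons induce in many cell types, interferon gamma above all. Guanylate-binding proteins assemble on bacterial membranes and on the vacuoles that hold microbes, help to expose LPS to caspase-11, and so feed the noncanonical inflammasome. IRG proteins attack the vacuole membrane of parasites such as Toxoplasma gondii, and the Irgm members act as guards that keep the effector IRGs inactive on the cell's own membranes. Macrophages given LPS make interferon beta, which in turn switches on these genes.

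Each row of the authors' deposited table gives a gene symbol and a log fold change, here taken as log2 and as EED KO against WT, with an unadjusted and an adjusted p-value. If the adjustment is that of Benjamini and Hochberg, the p-values imply more tests than there are annotated genes, so a row, and the value given below under its gene's name, may describe only a part of that gene. Values per library were not analysed here, so levels, spread over replicates and depth are unknown, and it cannot be said for any gene whether the groups overlap. The standard errors (SE) below are approximate, each being the size of the log2 fold change over the normal quantile that its p-value implies. The authors' test is not named, and a t distribution would give smaller SEs. The SE of a difference between values treats them as independent. Values of the same condition come from the same libraries, however, and whether conditions share mice is not stated. The words rose and fell are kept for an adjusted p under 0.05. The labels do not say whether the 3 libraries of a group come from separate mice, so these p-values may measure technical spread. The title of WT LPS primed replicate 1 places it in its group, but its description, which for the other libraries names the list they belong to, is blank, so it is not stated whether it entered the authors' comparison. Eed fell in unstimulated, primed and tolerant cells, with log2 values of -3.04, -3.59 and -3.87 per the authors' deposited table, in the direction of its labels. Lyz2, the site of the Cre insertion and a macrophage marker, also fell, with values of -1.17, -1.19 and -0.93 in the same order per the authors' deposited table. Of 10 macrophage markers, 1 other was listed in each condition, which was higher and did not pass. It was C1qa in unstimulated and tolerant cells, at 1.19 and 0.96, and Mertk in primed cells, at 0.79, per the authors' deposited table.

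All 11 listed values of the 10 genes were higher in EED KO cells, and 9 of the 10 genes were listed in 1 condition. Most rows of all genes were higher too, 76.7% of 227 in unstimulated, 79.8% of 377 in primed and 82.1% of 419 in tolerant cells, the lower lists holding 53, 76 and 75 rows in that order. As listing chose the members, nothing is read from their direction. In unstimulated cells only Iigp1 was listed. In primed cells 8 members were listed, Gbp2, Gbp3, Gbp4, Gbp5, Gbp7, Tgtp1, Tgtp2 and Iigp1. In tolerant cells 2 were listed, Gbp2b and Gbp10, neither of which was listed in the other conditions. A gene that is not listed may have been untested, may have missed the authors' fold or p bound, or may not have differed, so absence is not a measurement of no change. No test of a difference between conditions could be made for genes listed in 1 condition.

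**Figure D1:**
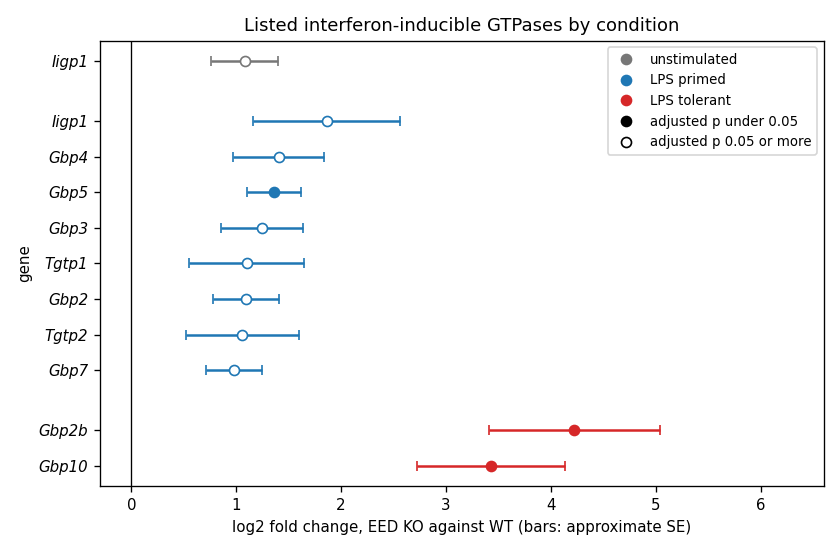
Log2 fold change of each listed member, EED KO against WT, by condition on the x axis, with bars for the approximate SE and filled points for an adjusted p under 0.05. The primed values lie between 0.98 and 1.86, while Gbp2b and Gbp10 in tolerant cells lie at 4.22 and 3.43.

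Among the effector GBPs, Gbp5 was the only member that rose in primed cells. GBP5 is known to promote inflammasome assembly. The authors' deposited table gives Gbp5 a log2 fold change of 1.36 (SE 0.26, adjusted p = 0.000119), which is 2.56-fold. The other 7 members listed in primed cells did not pass, so 1 of 8 passed, beside 34.6% of all 301 rows in the primed list of higher genes. As listing chose the members, nothing is read from that share.

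Gbp7 and Gbp2, which act with other GBPs on bacteria and on parasite vacuoles, came next by p-value. Gbp7 stood at 0.98 (SE 0.26, adjusted p = 0.0592) per the authors' deposited table, just outside the threshold. Gbp2 stood at 1.09 (SE 0.31, adjusted p = 0.116) per the authors' deposited table. The pair Gbp4 and Gbp3 had somewhat larger values with wider errors. Gbp4 stood at 1.40 (SE 0.43, adjusted p = 0.193) and Gbp3 at 1.25 (SE 0.39, adjusted p = 0.204) per the authors' deposited table. The 5 GBPs listed in primed cells thus lay within 0.98 to 1.40, and neighbours in that order differed by less than the approximate SE of their difference.

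The IRG members were less precise. Iigp1, also called Irga6, is an effector that disrupts parasite vacuoles. Its value in primed cells, 1.86 with an SE of 0.70 (adjusted p = 0.535), was the highest of the 8 per the authors' deposited table. Tgtp1 and Tgtp2, both also known as Irgb6, stood at 1.10 (SE 0.55) and 1.06 (SE 0.54) per the authors' deposited table, where both adjusted p-values were 1. With unadjusted p-values of 0.0453 and 0.0485 per the authors' deposited table, they were the members nearest to the edge of the primed list, whose largest unadjusted p was 0.0497. They ranked 296 and 298 of 301 rows by p-value. The median over the 8 primed members was 1.17, beside 1.09 over all 301 rows of that list.

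Iigp1 was the only member listed in 2 conditions. In unstimulated cells the authors' deposited table gives it 1.08 (SE 0.32, adjusted p = 0.424), 2.12-fold, and it ranked 94 of 174 rows by fold change. It did not pass, and of all 174 rows 21.8% did. The primed value exceeded the unstimulated one by 0.78, with an approximate SE of 0.77 for that difference, about as large as the difference itself. With SEs from a t distribution with 4 degrees of freedom it was 0.39, so the reading depends on the authors' test. By the largest difference over both conditions, the genes outside the members most like it among 32 with the same listing were Mmp13 and Fgl2. Mmp13, a collagenase, stood at 0.83 and 1.62 in unstimulated and primed cells per the authors' deposited table and was within 0.25 of Iigp1 in both. Fgl2, a fibrinogen-like secreted protein, stood at 1.00 and 1.54 per the authors' deposited table and was within 0.32.

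In tolerant cells both listed members rose, with fold changes above those of the 8 members in primed cells, a difference between conditions that was not tested. Gbp2b, known earlier as Gbp1, is a guanylate-binding protein whose inducibility by interferon differs between inbred mouse strains. The authors' deposited table gives Gbp2b a log2 fold change of 4.22 (SE 0.82, adjusted p = 0.000212), which is 18.7-fold. Gbp10 rose by 3.43 (SE 0.70, adjusted p = 0.000811), or 10.8-fold, per the authors' deposited table. They ranked 4 and 5 of 344 rows by fold change, and 43 and 51 by p-value. The share of all 344 rows that passed was 25.9%, and the median over those rows was 0.92. The gap between Gbp2b and Gbp10 was 0.79, with an approximate SE of 1.08 for that difference. With SEs from a t distribution with 4 degrees of freedom it was 0.0925, so whether both genes differ beyond their error cannot be said.

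**Figure D2:**
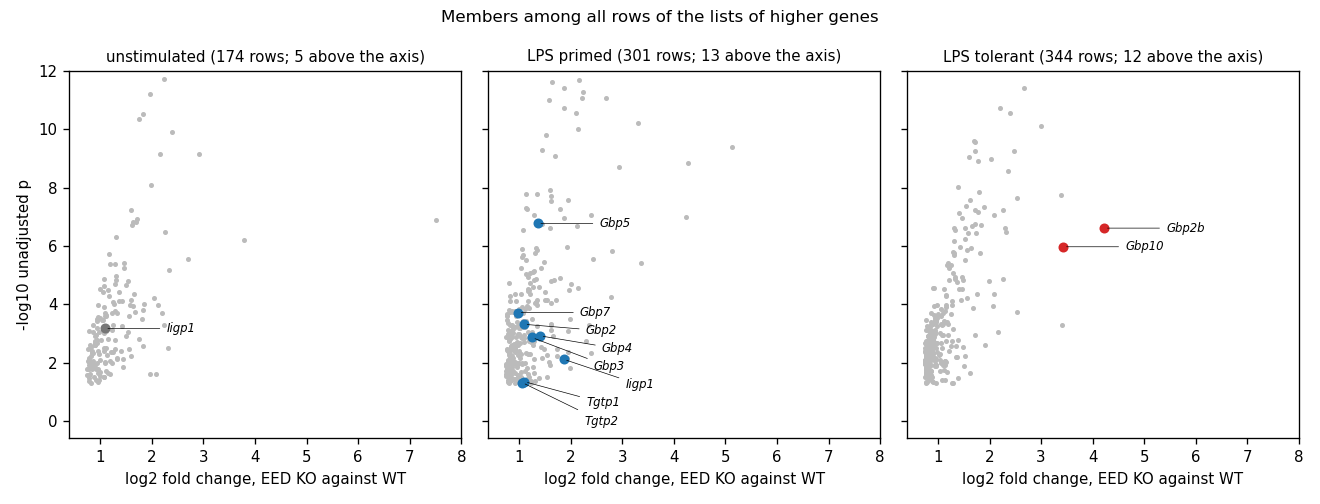
Log2 fold change (x axis) against the -log10 unadjusted p-value (y axis) for every row of the list of higher genes in each condition, members coloured and named. Primed members sit in the body of the list, and Gbp5, the highest of them, ranked 44 of 301 rows by p-value and 85 by fold change. Gbp2b and Gbp10 stand at the right edge of the tolerant list at 4.22 and 3.43.

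Because strains differ in Gbp2b, a gene of the H2 complex whose copies vary between strains is given beside it. H2-Q1, named after its values were seen, fell in tolerant and in primed cells, with log2 values of -13.12 and -9.45 per the authors' deposited table. In unstimulated cells H2-Q1 was not listed. Its part in the Gbp2b value was not tested. Some markers of other cells were listed, all of them higher in EED KO cells. Of all listed rows 76.7%, 79.8% and 82.1% were higher in unstimulated, primed and tolerant cells. Of those higher rows 21.8%, 34.6% and 25.9% passed in the same order, so nothing is read from the marker counts. Of 12 markers of T cells and natural killer cells, the main makers of interferon gamma, 0 were listed in any condition. Of 8 erythroid and megakaryocyte markers 2 rose in tolerant cells, Ppbp and Car2, at 2.03 and 1.82 per the authors' deposited table. Of 8 dendritic cell markers, Fscn1 rose by 2.58 in primed and by 1.30 in tolerant cells, and Cd24a stood at 0.93 (adjusted p = 0.573) in unstimulated cells, per the authors' deposited table. Of 9 neutrophil markers, the collagenase gene Mmp8 rose by 1.30 (adjusted p = 0.00117) in tolerant cells per the authors' deposited table. Of 8 stromal markers, Dcn, which encodes the matrix proteoglycan decorin, rose by 1.71 (adjusted p = 0.0287) in primed cells per the authors' deposited table. In tolerant cells Dcn and Igfbp7 were listed at 1.35 and 1.12 and did not pass, per the authors' deposited table. Of 7 B cell markers, Ighm was listed in unstimulated cells, at 1.63 (adjusted p = 0.132) per the authors' deposited table. These markers were thus higher in the same genotype, and partly in the same conditions, as the GTPases. The part of these cell types in the GTPase values was not tested, and in bulk RNA more cells of a type cannot be told apart from more RNA per cell.

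Listed genes of the wider families were also higher in EED KO cells. Most rows of all genes were higher as well, and the members are part of the families. The 31 symbols looked for stood for 26 distinct genes, 11 GBP and 15 IRG genes, of which 17 were listed somewhere and 9 nowhere. In primed cells 15 of the 26 were listed, all 15 higher, between 0.76 and 1.86 with a median of 1.09, and 2 rose, Gbp5 and, outside the member set, F830016B08Rik, for which RefSeq gives the synonym Ifgga4. Of the 15, 8 are members, chosen for being listed, and 7 are other family genes. Listed genes made up 0.68% of annotated genes in primed cells. How many were tested is unknown, so nothing is read from the count of 15. The 2 of 15 that passed stand beside 34.6% of all 301 rows in the primed list of higher genes. F830016B08Rik rose by 1.43 (SE 0.32, adjusted p = 0.00295), 2.70-fold, per the authors' deposited table. Its error was smaller than those of Iigp1 and Gm4951 (Ifgga2) in the same cluster on chromosome 18, the latter at 1.28 (SE 0.48, adjusted p = 0.522) per the authors' deposited table.

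Other family genes in primed cells did not pass. Gm12250, which encodes the bacteria-targeting Irgb10, stood at 0.83 (SE 0.39, adjusted p = 1) per the authors' deposited table. Gbp9 had the lowest family value, 0.76 (adjusted p = 0.65), per the authors' deposited table, just inside the lowest fold change of that list, 0.75. Gm12185 stood at 0.85, and the tandem copies 9930111J21Rik1 and 9930111J21Rik2 at 0.98 and 0.78, per the authors' deposited table. Of these, 9930111J21Rik1 was also listed in unstimulated cells, at 1.33 (SE 0.50, adjusted p = 1) per the authors' deposited table, the only family gene beside Iigp1 there. The regulatory IRGs Irgm1, Irgm2 and Igtp were listed in no condition, nor were Ifi47, Irgc1, Gm4841, Gbp6, Gbp8 and Gbp11.

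The family genes lie in gene clusters, and all but the cluster on chromosome 3 also hold unlisted family genes. On chromosome 3 the order of the GBP genes is Gbp5, Gbp7, Gbp3, Gbp2b and Gbp2. All 5 are members, chosen for being listed, so their listing was fixed beforehand. Of these, 4 were listed in primed cells and Gbp2b, which lies between Gbp3 and Gbp2, in tolerant cells. On chromosome 5 Gbp9 and Gbp4 were listed in primed cells and their neighbour Gbp10 in tolerant cells, while Gbp8 and Gbp6 at the ends were not listed. On chromosome 11, Tgtp1 and Tgtp2 alternate with 9930111J21Rik1 and 9930111J21Rik2, and all 4 were listed in primed cells. Irgm1 and Ifi47 at the ends of that cluster were not listed, nor were Igtp and Irgm2 beside Gm12250. Listed genes made up 0.68% of annotated genes in primed and 0.752% in tolerant cells. How many were tested is unknown, so nothing is read from the clusters. Order was taken from RefSeq's table for GRCm38.p6, an older build than the authors' GRCm39.

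**Figure D3:**
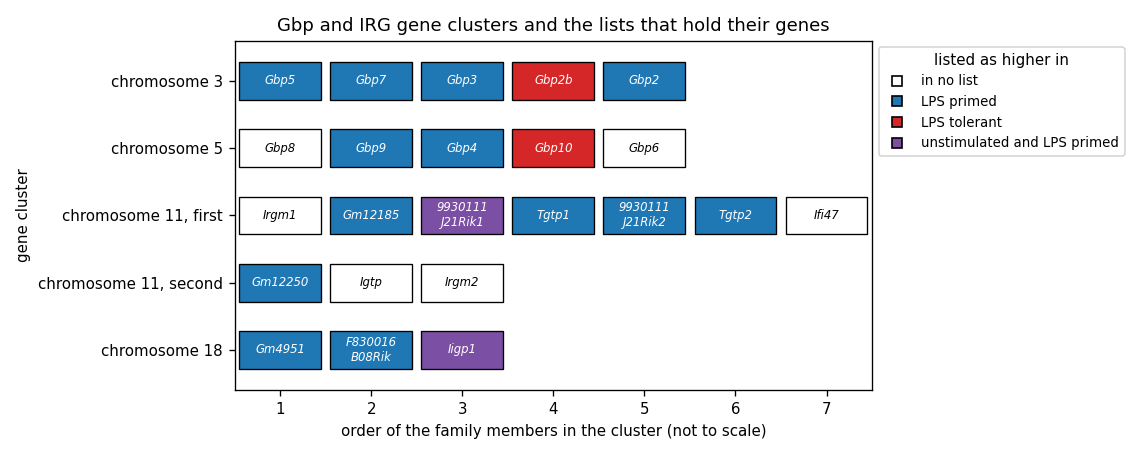
Order of Gbp and IRG genes within their clusters (x axis, rank in the cluster, not to scale; y axis, cluster), filled by the condition in which each was listed as higher in EED KO cells. All 5 genes on chromosome 3 are members, chosen for being listed, and so are filled. Gbp2b was listed in tolerant and the other 4 in primed cells. Gm4841, an unlisted IRG gene between Gm4951 and F830016B08Rik, is not drawn, so the ranks in that cluster skip it.

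The promoters of the members share interferon motifs. The motifs were not used to choose the members, but the members were chosen from interferon-inducible families, so matches were likely beforehand. The interferon-stimulated response element (ISRE) was searched as a pair of GAAA tetramers 2 bases apart, its core, and the gamma-activated site (GAS) as TTCNNNGAA, on both strands, from 250 bases before to 50 after each start. The RefSeq promoter table held 7 of the 10 members, and Gbp4, Gbp10 and Iigp1 had no entry. All 7 had an ISRE core match, beside 3.99% of all 27025 genes in the table. A GAS match was found in 4 of the 7, Gbp5, Gbp7, Tgtp1 and Tgtp2, beside 9.55% of all genes. Neither motif was particular to the members. For 8 IRG genes outside the member set an entry was found, though Irgc1 and Gm4841 were not looked for under these names. Of these 8, 6 had an ISRE core match and 4 a GAS match. Among them were Irgm2 and Igtp with both and Irgm1 with the ISRE core, which were listed in no condition. The windows around the ISRE core of the GBP genes on chromosome 3 are shown because 4 were listed in primed cells and Gbp2b in tolerant cells. Capitals mark the match, which lies on the opposite strand in each, and coordinates are GRCm38.p6, plus strand, from RefSeq.
Gbp5, chr3:142496749-142496798: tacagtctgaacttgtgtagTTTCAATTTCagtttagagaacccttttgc
Gbp7, chr3:142530263-142530312: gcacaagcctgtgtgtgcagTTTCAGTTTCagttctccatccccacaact
Gbp3, chr3:142559979-142560034: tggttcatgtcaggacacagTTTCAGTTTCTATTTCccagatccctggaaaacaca
Gbp2b, chr3:142594690-142594739: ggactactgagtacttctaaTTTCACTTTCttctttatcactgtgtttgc
Gbp2, chr3:142620584-142620633: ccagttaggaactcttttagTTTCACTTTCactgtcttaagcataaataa

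Gbp3 carried 2 overlapping matches. The first base of the match lay 45, 53 and 59 bases upstream of the start in Gbp3, Gbp7 and Gbp2, and 137 and 165 bases upstream in Gbp2b and Gbp5. Gbp2b, listed in tolerant cells, thus had the same core as the primed members but farther from the start, as did Gbp5. A match is a description of letters and does not show that a factor binds there.

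Some of the IRG promoters on chromosome 11 had a tighter arrangement. In Tgtp1 and Tgtp2 a GAS match ended 2 bases before an ISRE core match. This combined form, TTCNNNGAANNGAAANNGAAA, was searched after those matches had been seen. It occurred in 5 of 32851 promoters, all of them IRG genes of chromosome 11. These were Tgtp1, Tgtp2 and Gm12185, listed in primed cells, and the regulatory Igtp and Irgm2, which were in no list. The arrangement was therefore present in listed and unlisted genes. Irgm1, Ifi47, Gm12250, 9930111J21Rik1 and 9930111J21Rik2 on the same chromosome had a promoter entry but not this form. The 5 windows are shown because they look alike over most of their length, with capitals for the GAS and the ISRE core match and coordinates on GRCm38.p6 from RefSeq, on the minus strand for the first 3 and the plus strand for Igtp and Irgm2.
Tgtp1, chr11:48992304-48992344: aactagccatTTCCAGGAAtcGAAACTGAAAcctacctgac
Tgtp2, chr11:49064263-49064303: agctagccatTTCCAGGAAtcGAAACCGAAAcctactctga
Gm12185, chr11:48927238-48927278: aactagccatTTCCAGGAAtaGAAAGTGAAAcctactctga
Igtp, chr11:58199501-58199541: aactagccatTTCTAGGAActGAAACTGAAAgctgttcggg
Irgm2, chr11:58214892-58214932: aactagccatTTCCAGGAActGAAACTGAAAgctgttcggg

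**Figure D4:**
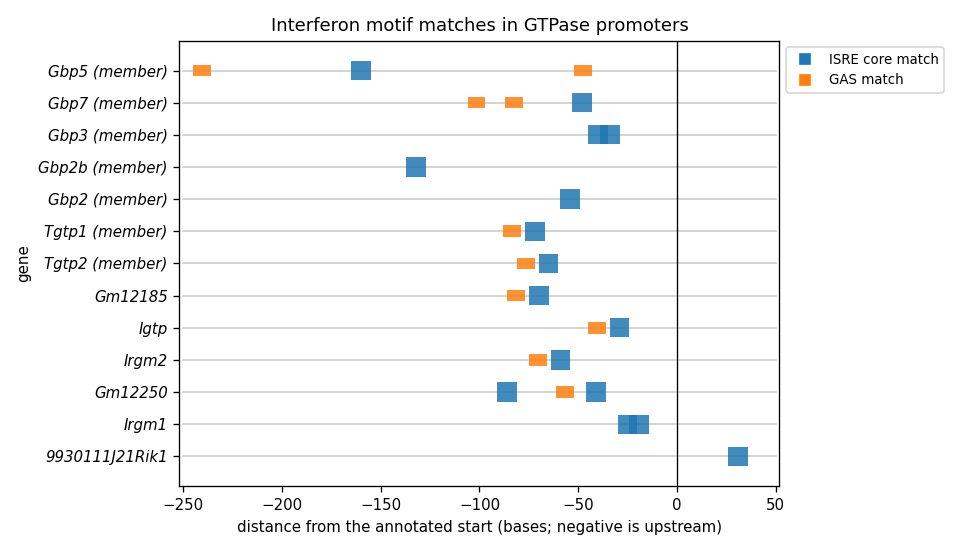
Position of ISRE core and GAS matches (x axis, bases from the annotated start, negative upstream) in the promoters of 7 members and 6 other family genes (y axis). In Tgtp1, Tgtp2, Gm12185, Igtp and Irgm2 the GAS match ends 2 bases before the ISRE core.

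Reads of near-identical copies can be hard to assign, and some members are such copies. The coding sequences of Tgtp1 and Tgtp2 were 99.7% identical, with 4 substitutions over 1245 bases. Of all 150-base windows of the longest-coding transcript, the length of 1 read, 74.1% for Tgtp1 and 71.7% for Tgtp2 also occurred in another annotated gene, mostly in each other. Their near-equal values of 1.10 and 1.06 are uncertain as separate measurements for that reason. Gbp10 was 98.4% identical to Gbp6, with 30 substitutions over 1833 coding bases, and 44.6% of its windows occurred in Gbp6. Counting Gm43302, a gene that overlaps the Gbp10 and Gbp6 locus and has a readthrough transcript in GENCODE vM21, 63.2% occurred in another gene. Neither Gbp6 nor Gm43302 was listed, and the Gbp10 value is uncertain to the extent that its reads were shared. For Gbp2b, Gbp2, Gbp3, Gbp5 and Iigp1 the share was 0%, for Gbp4 0.0456% and for Gbp7 8.93%. Gbp2b, with the largest value, thus shared no window with another gene, and was 82.5% identical to Gbp2 over its coding sequence.

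**Figure D5:**
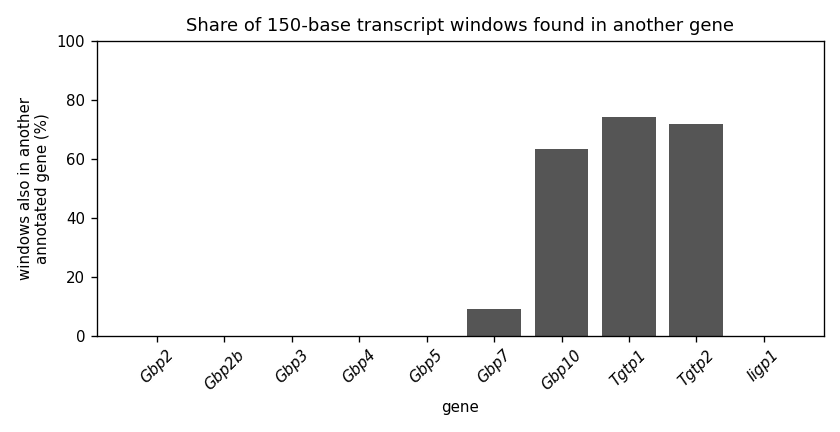
Share of 150-base windows of each member's transcript that occur exactly in another annotated gene (y axis, percent; x axis, gene), in GENCODE vM21. Tgtp1, Tgtp2 and Gbp10 stand at 74.1%, 71.7% and 63.2%, and the other 7 at 8.93% or less. For Gbp10 this counts the overlapping readthrough gene Gm43302, and 44.6% of its windows occur in Gbp6.

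In each of 2 pairs of rows, 1 Ensembl identifier is shared. Gbp4 and Gbp3 both carry ENSMUSG00000028268, and Tgtp1 and Tgtp2 both carry ENSMUSG00000078921. In GENCODE vM21 the first belongs to Gbp3 and the second to Tgtp2, while Gbp4 and Tgtp1 have identifiers of their own, ENSMUSG00000079363 and ENSMUSG00000078922. RefSeq lists Gbp4 among the older names of Gbp3, and Tgtp2 among those of Tgtp1. Gbp3 and Gbp4 lie on different chromosomes, were 68.6% identical over their coding sequence, and have different fold changes and p-values in the deposited rows. In all, 18 of 985 rows with a known identifier had a symbol other than the GENCODE one. Whether the Gbp4 row was counted over Gbp4 or over Gbp3 was not tested.

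From the pathway around the GTPases 3 genes were listed, all higher and in primed cells, and none passed. The genes listed in primed cells made up 0.68% of the 55450 annotated in GENCODE vM21, but how many were tested is unknown, so nothing is read from these counts. Of 20 interferons, receptors, Janus kinases and related regulators, Jak2, a kinase of the interferon gamma receptor, was listed in primed cells at 0.81 (adjusted p = 0.637) per the authors' deposited table, and none in the other conditions. Of 13 interferon-responsive transcription factors, Irf1 and Irf8 among them, 0 were listed in any condition. Of 12 inflammasome genes and GBP partners, Naip5, a sensor of bacterial flagellin, stood at 1.02 (adjusted p = 0.139) in primed cells per the authors' deposited table. Of 18 genes of the ubiquitin-like coat and autophagy machinery that marks vacuoles, Rnf213, a ubiquitin ligase, stood at 0.93 (adjusted p = 0.603) in primed cells per the authors' deposited table.

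Other interferon-induced GTPases and genes were listed mainly in primed cells. Both antiviral Mx genes were, Mx1 at 1.18 and Mx2 at 0.82, and the authors' deposited table has 1 as the adjusted p of both. Of 44 other interferon-stimulated genes, 6 were listed in primed cells, all higher, and Ly6c2 rose, by 2.01 (adjusted p = 0.00941), per the authors' deposited table. In tolerant cells 2 of the 44 were listed, both higher and neither past the threshold, Ly6e at 1.04 and Ly6c2 at 1.49 per the authors' deposited table. In unstimulated cells 3 were listed and all 3 were lower, Apol9b at -1.40, Slfn1 at -1.06 and Ms4a4c at -0.88 per the authors' deposited table, opposite in sign to Iigp1, and none passed. Apol9b was also among the 6 listed as higher in primed cells, at 1.65 (adjusted p = 0.19) per the authors' deposited table. Of all listed rows 79.8% were higher in primed, 82.1% in tolerant and 76.7% in unstimulated cells. Of the higher rows 34.6% passed in primed and 25.9% in tolerant cells. Listed genes made up 0.68% of annotated genes in primed, 0.752% in tolerant and 0.409% in unstimulated cells. How many were tested is unknown, so nothing is read from these counts. The listed interferon genes share their libraries with the GTPase values of the same condition.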

How the data were processed

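The members and the gene lists were chosen with earlier results of these data known. RNA was read as stranded mRNA libraries in pairs of 150 bases, per the labels' protocols; HISAT2, edgeR, R 4.0.3 and GRCm39 are named in the submitters' processing notes, while annotation, filters and test are not given there or elsewhere in the sources. In each list the authors deposited log2 fold changes (log base and direction not stated; Eed is in each lower list) whose depth is unknown. The authors computed the unadjusted and adjusted p-values, per the file headers, with a test that is not named. Rows reached an unadjusted p of 0.0498 and started at an absolute log2 fold change of 0.75. Adjusted over unadjusted p, a ratio that under Benjamini-Hochberg adjustment cannot exceed the number of tests, reached 413233, about 379747 (from values rounded by the authors) and 338297 in unstimulated, primed and tolerant cells, above the 55450 genes of GENCODE vM21, so rows may describe parts of genes.

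No model was fitted. Approximate SEs, counts, motif matches and global alignments (Biopython 1.88; match 1, mismatch -1, gap -5 and -0.5) were computed in Python 3.11.15 with pandas 2.3.3 and SciPy 1.17.1, and the SE, p-ratio and motif steps were tested on simulated data. Coding identity replaced the protein identity first intended. Text names all members, listed genes of the pathway lists, at most 5 other interferon genes per condition, and the 2 genes most like a member listed in 2 conditions. Alternatives were other p thresholds, a fold minimum, shared identifiers counted once, and another SE. A gene of the transcription factor list is not reported here.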

Additional observations from a re-analysis of the deposited data

How the results depend on the processing

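Of 26 alternative counts and medians, 25 stayed within 1.5 times the reported count or within the median SE of the listed members. The exception was the number of members past the adjusted threshold in primed cells, which was 2 in place of 1 at an adjusted p under 0.1, the second being Gbp7. Several of the 26 could not have moved. In unstimulated cells 1 member was listed and 0 passed, so a stricter threshold had to give 0. In tolerant cells both listed members passed and carry different identifiers, so both medians were fixed. The 25 are therefore no measure of robustness. Counting rows that share an identifier once left 6 of the 8 listed in primed cells. With a t distribution of 4 degrees of freedom in place of the normal, SEs were between 0.0676 and 0.703 of those given. A median over members past the threshold could not be had in unstimulated cells. Leaving out a library, other normalizations and filters were not run, since values per library were not analysed here. No paired analysis was possible because the deposited tables hold no values per library. Reads per gene, and so what depth limits, are unknown.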

Other observations

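Outside the GTPase members, an ISRE core match was found in the promoters of 20 of 233 genes of the primed list of higher genes that had a promoter entry, 8.58%, and in 8 of 236 genes of the tolerant list, 3.39%, beside 3.99% of all genes in the table. A GAS match was found in 8.15% and 5.51% of the same genes, beside 9.55% of all. These shares are descriptions, and the lists hold genes of many kinds. The primed set still held other IRG genes with an ISRE core match, Gm12185, Gm12250 and 9930111J21Rik1. Gvin-ps2, a pseudogene of the giant interferon-inducible GTPases named after its values were seen, stood at 1.03 (adjusted p = 1) in primed cells per the authors' deposited table, while none of the 9 giant GTPase genes looked for was listed in any condition.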
